A study of Mus musculus with 12 samples.

Results

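The glycolytic enzymes of fast muscle were examined in RNA-seq profiles of the extensor digitorum longus (EDL), which in the mouse is a hind limb muscle made almost wholly of fast-twitch fibers. The members were the rows of the expression table whose symbol was Gpi1, Pfkm, Aldoa, Tpi1, Gapdh, Pgk1, Pgam2, Eno3, Pkm or Gpd1. These 10 symbols gave 11 rows of the 17752 genes listed, because Aldoa names a pair of genes, and all 11 passed the filter on low values. The male mice were 8 weeks old at the start and spent the next 8 weeks with running wheels for voluntary training or without exercise. Those labelled strNrip1-/- carried floxed Nrip1 alleles and a Cre recombinase driven by the muscle creatine kinase promoter, which acts in heart and skeletal muscle, and those labelled WT were control littermates. Per the study's methods, wheels were removed ahead of the endpoints and mice that ran too little were excluded. There were 3 libraries in each of the 4 groups (labelled WT sedentary, labelled strNrip1-/- sedentary, labelled WT trained and labelled strNrip1-/- trained).

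Glycolysis splits glucose in the cytosol into pyruvate, yielding ATP and NADH without oxygen. Fast fibers hold these enzymes at high levels and use muscle-specific forms of several of them, such as the muscle phosphofructokinase, phosphoglycerate mutase and enolase. Gpd1, the cytosolic glycerol-3-phosphate dehydrogenase, branches off the pathway and passes electrons of cytosolic NADH to the mitochondrial enzyme Gpd2. Nrip1 encodes RIP140, a corepressor of nuclear receptors known for holding back oxidative genes in muscle.

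From the spacing of low values, the fragment total that scaled each library was estimated at 20 M to 28.95 M. This total is the depth only if each library was scaled by its own fragments, which was not stated. Nrip1 itself went against the labels. It lay between 2.53 and 4.76 FPKM (fragments per kilobase of transcript, scaled by a fragment total) in the libraries labelled WT and between 14.9 and 20.7 FPKM in those labelled strNrip1-/-, so every genotype direction below rests on the labels. Per the study's methods, Cre removes the last exon, which holds the coding sequence, while a value per gene also counts reads of the exons left in place, and the exons were not analysed apart here. The fast-fiber markers summed to between 100492 and 160268 FPKM per library, against 66.3 to 576 FPKM for the slow-fiber markers. Transcripts of the mitochondrial genome took up 42.2% to 47.3% of all FPKM in 9 libraries and 51.2% to 52.8% in the 3 sedentary libraries labelled strNrip1-/-. Labelled strNrip1-/- sedentary replicate 2 and labelled WT trained replicate 2 had the highest column sums, 1.32 M and 1.24 M FPKM, and they also held the highest value of their group for many of the enzymes. The study took these muscles from a separate cohort of its training mice and gives n = 3 per group. It does not state outright that each library was a different mouse, so the p-values are read as measuring the spread between these libraries.

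The enzymes were among the most abundant messengers of the muscle. Averaged over the 12 libraries and expressed per length, Aldoa stood at 17171 FPKM and ranked 14 among all genes listed. It was followed by Gapdh at 6227 FPKM, Eno3 at 4468, Pgam2 at 2966, Pkm at 2050.2, Pfkm at 1813 and Tpi1 at 1575 FPKM. Pgk1 at 544, Gpi1 at 474 and Gpd1 at 279.8 FPKM were lower, and the second Aldoa gene came last at 22.2 FPKM. This order of group means was the same in each of the 4 groups. Neighbors in this order overlapped within a group for Pkm and Pfkm and for Pgk1 and Gpi1 in both groups labelled strNrip1-/-, and for Pfkm and Tpi1 in the trained WT group, and no other neighbors did.

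**Figure D1:**
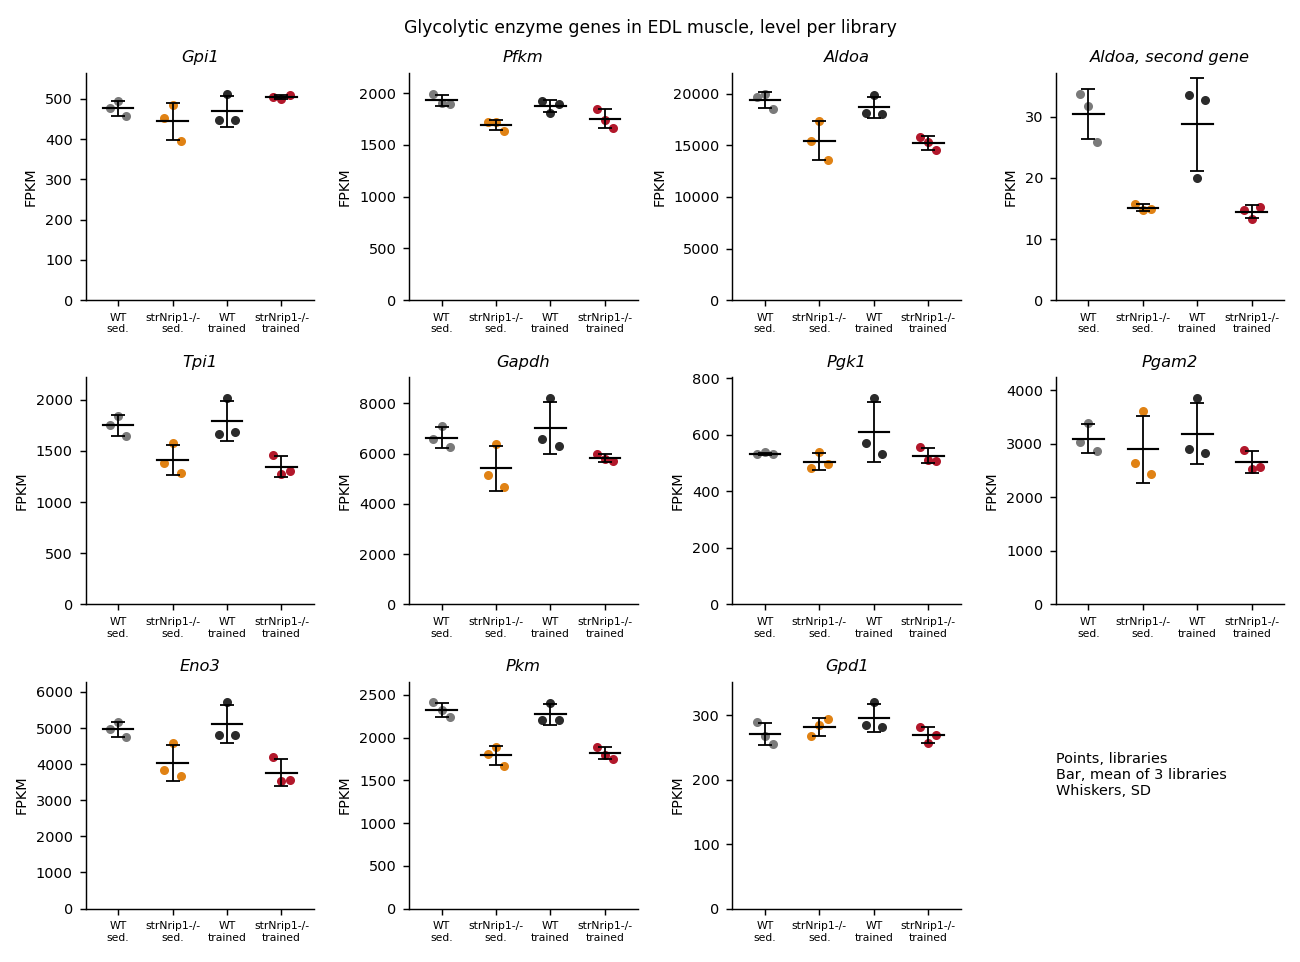
FPKM (y axis, from 0) of the 11 glycolytic enzyme genes in each library of the 4 groups (x axis; sed., sedentary), with the mean of 3 libraries (bar) and the SD (whiskers). The libraries labelled strNrip1-/- lay below those labelled WT with no overlap at both training states for Aldoa, the second Aldoa gene, Tpi1, Eno3 and Pkm. The groups overlapped at both states for Gpi1, Pgk1, Pgam2 and Gpd1.

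The first question was whether the enzymes differed between the labelled genotypes. Most lay lower in the libraries labelled strNrip1-/-, and the calls that passed the test were all in this direction. Calls required a limma adjusted p under 0.05 together with a fold change over 1.2. In sedentary muscle 2 of the 11 members were called lower, Pkm and the second Aldoa gene. Of the 12744 genes tested there, 3.51% were called in either direction and 1.59% were called lower. Apart from the second Aldoa gene, a member by its symbol alone, only Pkm was called in sedentary muscle. In trained muscle Pkm, the second Aldoa gene, Tpi1 and Eno3 were called lower, 4 members in all, against 5.98% of all genes in either direction and 2.77% lower. Over both training states together these 4 and Aldoa were called, 5 of 11, against backgrounds of 8.80% and 3.91%. The median log2 fold change of the members was −0.31 in sedentary, −0.26 in trained muscle and −0.28 over both, whereas the median of all genes tested lay at 0.00, 0.01 and 0.00. In each of these comparisons 10 of the 11 members were below 0, against 50.2%, 49.0% and 49.2% of all genes. At an unadjusted p under 0.05 there were 7, 5 and 7 members, beside 2080, 2683 and 3072 of all genes. Without overlap between the 3 and 3 libraries, 6 members were lower in sedentary and 6 in trained muscle, where 10.9% and 13.4% of all genes showed this.

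The scale of the values bore on these counts. When every library was set to the same sum of FPKM, 7, 3 and 6 members were called in sedentary, trained and both states, but the median of all genes then moved by −0.14 in sedentary muscle. Relative to that shift the members' median was −0.32. Without the pair of libraries with the highest sums the counts were 6, 4 and 6 and the medians −0.39, −0.15 and −0.29, while 446, 928 and 1097 of all genes were called. When the nuclear genes alone were set to the same sum, 2, 4 and 4 members were called, with medians of −0.23, −0.23 and −0.23. Over all genes the balance of calls turned with the scale. In sedentary muscle 245 genes were called higher and 202 lower with the deposited values, 121 and 531 with the same sum and 397 and 83 with the same nuclear sum, and in trained muscle these were 409 and 353, 549 and 130, and 466 and 148. Over both states they were 624 and 498, 429 and 524, and 827 and 240.

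**Figure D2:**
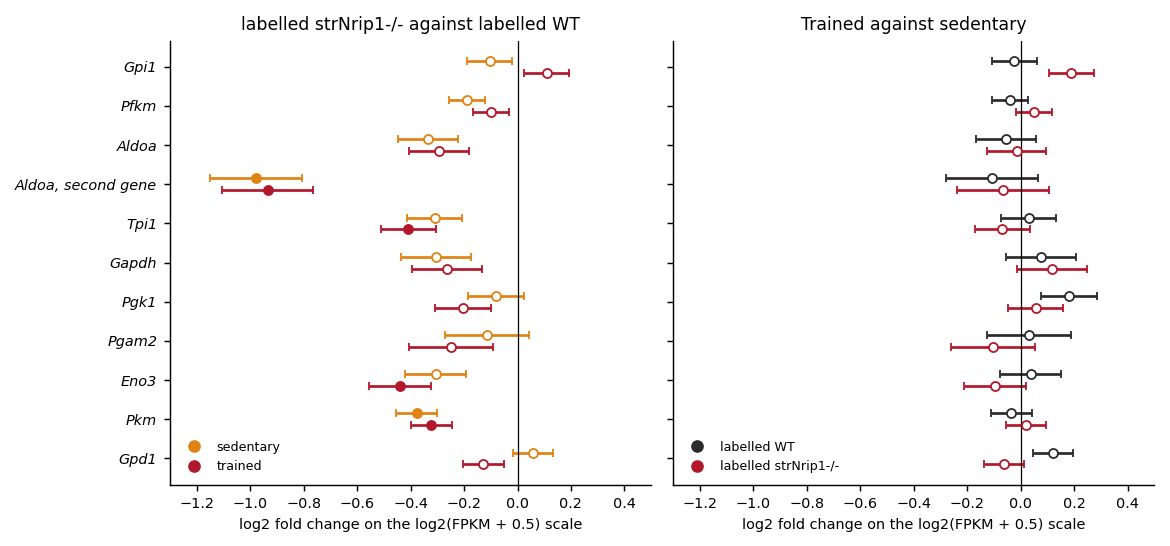
The log2 fold change (x axis, on the log2(FPKM + 0.5) scale) of each enzyme gene (y axis) with its standard error, for the labelled genotypes (left) and for training (right). Filled points were called, with a limma adjusted p under 0.05 and a fold change over 1.2. The filled points are those of the second Aldoa gene and Pkm in both genotype comparisons and of Tpi1 and Eno3 in trained muscle, and no point on the right is filled.

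The first steps in the group, Gpi1 and Pfkm, were not called between the labelled genotypes. Gpi1 (ENSMUSG00000036427, chromosome 7, 34201330 to 34230336 on GRCm38), which turns glucose 6-phosphate into fructose 6-phosphate, was at 477, 494 and 458 FPKM in the sedentary libraries labelled WT and at 454, 486 and 394 FPKM in the sedentary libraries labelled strNrip1-/-. In trained muscle it was at 448, 512 and 447 FPKM against 505, 499.6 and 509.8 FPKM. The groups overlapped at both states, and the log2 fold changes were −0.10 (limma, adjusted p = 0.636, SE 0.085) and 0.11 (adjusted p = 0.511, SE 0.085). Gpi1 was thus the 1 member above 0 in trained muscle, with the deposited scale.

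Pfkm (ENSMUSG00000033065, chromosome 15, 98092589 to 98132451) encodes the muscle subunit of phosphofructokinase, the step that commits sugar to glycolysis. It was at 1994, 1901 and 1897 FPKM in the sedentary WT group and 1723, 1721 and 1637 FPKM in sedentary libraries labelled strNrip1-/-, with no overlap. In trained libraries the values were 1923, 1811 and 1896 FPKM against 1849, 1746 and 1663 FPKM, which overlapped. The log2 fold changes of −0.19 (limma, adjusted p = 0.178, SE 0.067) and −0.10 (adjusted p = 0.450, SE 0.067) did not pass. Over both states Pfkm was at −0.14 (limma, adjusted p = 0.0810, SE 0.048), also not called.

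Aldoa encodes aldolase A, which cleaves fructose 1,6-bisphosphate into a pair of triose phosphates. The gene that held nearly all of its signal (ENSMUSG00000030695, chromosome 7, 126795234 to 126800751, minus strand) was at 19664, 19979.7 and 18489 FPKM in the sedentary WT group and 15421, 17314 and 13569 FPKM in sedentary libraries labelled strNrip1-/-. In the trained groups it was at 18087, 19854 and 18038 FPKM against 15823, 15281 and 14534 FPKM. The groups did not overlap at either state. Its log2 fold change was −0.33 (limma, adjusted p = 0.145, SE 0.111) in sedentary and −0.29 (adjusted p = 0.152, SE 0.111) in trained muscle, neither of them called, and −0.31 (adjusted p = 0.0250, SE 0.078) over both states, which was called. That call was lost without labelled WT sedentary replicate 1 or 2, labelled strNrip1-/- sedentary replicate 1, labelled WT trained replicate 1 or labelled strNrip1-/- trained replicate 2 or 3, with adjusted p-values of 0.0523 to 0.0763. It was also lost with no filter on low values (adjusted p-value 0.164) and, by the fold threshold, with the same nuclear sum and under quantile normalization, where Aldoa stood at −0.26.

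The second gene of that symbol (ENSMUSG00000114515, chromosome 7, 126800790 to 126809108, minus strand) lies upstream of the first with 38 bases between them. It is annotated as protein-coding with 2 transcripts. In the annotated transcript examined it shared no run of 31 bases with any other gene, the first Aldoa gene included. Whether it encodes an aldolase was not examined. The second gene was at 33.7, 31.7 and 25.8 FPKM in labelled WT sedentary and 15.8, 14.8 and 14.8 FPKM in sedentary libraries labelled strNrip1-/-. Trained libraries were at 33.5, 20.05 and 32.7 FPKM against 14.8, 13.3 and 15.3 FPKM, so that the labelled strNrip1-/- libraries were lower without overlap at both states, while labelled WT trained replicate 2 lay well below its group. The log2 fold change was −0.98 (limma, adjusted p = 0.0107, SE 0.171) in sedentary and −0.93 (adjusted p = 0.0100, SE 0.171) in trained muscle, where the level fell by 49.2% and 47.7% on that scale. The sedentary call was lost without labelled WT sedentary replicate 1 (adjusted p-value 0.0571). Within a library this gene made up 0.139% to 0.171% of the summed Aldoa FPKM in labelled WT sedentary and 0.0851% to 0.109% in sedentary libraries labelled strNrip1-/-, without overlap. Among trained libraries the shares were 0.101% to 0.185% and 0.0866% to 0.105%, which overlapped through labelled WT trained replicate 2.

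The triose steps followed. Tpi1 (ENSMUSG00000023456, chromosome 6, 124810586 to 124814296), which interconverts the triose phosphates, was at 1757, 1845 and 1645 FPKM in the sedentary WT group and 1383, 1575 and 1285 FPKM in sedentary libraries labelled strNrip1-/-. Trained libraries were at 1665, 2016 and 1688 FPKM against 1459.7, 1276 and 1302 FPKM, again with no overlap. The log2 fold change was −0.31 (limma, adjusted p = 0.147, SE 0.103) in sedentary, −0.41 (adjusted p = 0.0407, SE 0.103) in trained muscle and −0.36 (adjusted p = 0.00921, SE 0.073) over both. The trained call stood without labelled strNrip1-/- sedentary replicate 2 or 3 or labelled strNrip1-/- trained replicate 1, and was lost without any one of the other libraries, 9 of the 12, with adjusted p-values of 0.0554 to 0.148. The call over both states was kept in each of the 12 refits (adjusted p-values up to 0.0297).

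Gapdh (ENSMUSG00000057666, chromosome 6, 125161715 to 125166467), which makes the NADH of glycolysis and often serves as a reference gene, was at 6579.8, 7081 and 6264 FPKM in labelled WT sedentary and 5157, 6399.8 and 4679 FPKM in sedentary libraries labelled strNrip1-/-, which overlapped through replicate 2 of the latter. In the trained groups it was at 6594, 8212 and 6293 FPKM against 5985, 5769 and 5714 FPKM, with no overlap. The log2 fold changes of −0.31 (limma, adjusted p = 0.274, SE 0.131), −0.26 (adjusted p = 0.284, SE 0.131) and −0.28 over both states (adjusted p = 0.0769, SE 0.093) were not called. The last passed in 5 of 23 alternatives, among them without labelled strNrip1-/- sedentary replicate 2, where it was −0.35 with an adjusted p-value of 0.0192. The sedentary value was 0 under quantile normalization, and the trained value was −0.15 without labelled WT trained replicate 2 (adjusted p-value 0.562).

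Pgk1 and Pgam2, the kinase that makes the first ATP of the payoff phase and the muscle mutase that follows it, were not called in any comparison. Pgk1 (ENSMUSG00000062070, chromosome X, 106187100 to 106203699) was at 531, 538 and 533 against 482, 539.7 and 495 FPKM in sedentary and at 569.6, 730.2 and 531 against 556, 512 and 508 FPKM in trained libraries. Its log2 fold changes were −0.08 (limma, adjusted p = 0.799, SE 0.104) and −0.20 (adjusted p = 0.298, SE 0.104). Both pairs of groups overlapped, and the widest group held the 1 library at 730.2 FPKM, labelled WT trained replicate 2.

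Pgam2 (ENSMUSG00000020475, chromosome 11, 5801640 to 5803733) varied most among replicates of the abundant enzymes. It was at 3043, 3393 and 2867 against 2651, 3614 and 2442 FPKM in sedentary and at 2897, 3858 and 2829.8 against 2895, 2529 and 2569 FPKM in trained libraries. The libraries at 3614 and 3858 FPKM were the pair with the highest column sums. The log2 fold changes were −0.11 (limma, adjusted p = 0.814, SE 0.158) and −0.25 (adjusted p = 0.410, SE 0.158), and the groups overlapped at both states.

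The last steps, enolase and pyruvate kinase, came next. Eno3 (ENSMUSG00000060600, chromosome 11, 70657202 to 70662513), the muscle enolase, was at 4971, 5171 and 4755 FPKM in labelled WT sedentary and 3827, 4599.8 and 3669 FPKM in sedentary libraries labelled strNrip1-/-. Trained libraries were at 4804, 5716 and 4807 FPKM against 4209, 3523 and 3566 FPKM, with no overlap at either state. The log2 fold change was −0.31 (limma, adjusted p = 0.201, SE 0.115) in sedentary, −0.44 (adjusted p = 0.0466, SE 0.115) in trained muscle and −0.37 (adjusted p = 0.0130, SE 0.081) over both. As with Tpi1, the trained call stood without labelled strNrip1-/- sedentary replicate 2 or 3 or labelled strNrip1-/- trained replicate 1 and was lost without any one of the other 9 libraries, with adjusted p-values of 0.0641 to 0.167, while the call over both states was kept in all 12 refits.

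Pkm (ENSMUSG00000032294, chromosome 9, 59656368 to 59679375) encodes the M forms of pyruvate kinase, the final step, and its M1 and M2 splice forms are not told apart by a value per gene. It was at 2413, 2319 and 2243 FPKM in labelled WT sedentary and 1809.5, 1895 and 1668 FPKM in sedentary libraries labelled strNrip1-/-. In trained libraries it was at 2200.1, 2407 and 2204 FPKM against 1892, 1799 and 1753 FPKM. The lowest library labelled WT was thus above the highest labelled strNrip1-/- over all 12. In log2 units Pkm fell by 0.38 (limma, adjusted p = 0.0206, SE 0.075) in sedentary and by 0.32 (adjusted p = 0.0301, SE 0.075) in trained muscle, and by 0.35 (adjusted p = 0.00177, SE 0.053) over both. The sedentary call was lost without labelled WT sedentary replicate 1, 2 or 3 or labelled strNrip1-/- sedentary replicate 1 (adjusted p-values of 0.0565 to 0.0956), and the trained call without labelled WT trained replicate 1, 2 or 3 or labelled strNrip1-/- trained replicate 2 or 3 (0.0677 to 0.128). The call over both states remained whichever 1 library was left out.

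Gpd1 (ENSMUSG00000023019, chromosome 15, 99717515 to 99725005) stayed near its labelled WT level. It was at 290.2, 268 and 256 against 267, 285 and 294 FPKM in sedentary and at 285, 320.5 and 281 against 283, 258 and 270.0 FPKM in trained libraries, with overlap at both states. The log2 fold changes were 0.06 (limma, adjusted p = 0.803, SE 0.075) and −0.13 (adjusted p = 0.374, SE 0.075). Because Gpd1 is also high in fat cells, the adipocyte markers were set beside it. Among sedentary libraries the 8 markers summed to 188 to 225 FPKM with the WT label and 244 to 367 FPKM with the strNrip1-/- label, and among trained ones to 210.3 to 254 and 228 to 342 FPKM. None of the 7 that passed the filter was called, Lep, which did not pass it, was lowest at 0.0266 FPKM in 1 library, and their part in the level of Gpd1 was not tested. As a share of the 11 genes together, Gpd1 made up 0.623% to 0.695% in labelled WT sedentary and 0.741% to 0.976% in sedentary libraries labelled strNrip1-/-, and 0.705% to 0.721% and 0.777% to 0.833% in the trained groups, without overlap. This separation follows from the lower sum of the 11 genes with the strNrip1-/- label, while Gpd1 itself was not called, and it was not tested.

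Summed over its members, the pathway occupied less of the nuclear transcriptome in the libraries labelled strNrip1-/-. Among sedentary libraries the 11 genes summed to 41403 ± 1820 FPKM with the WT label and 33927 ± 4197 FPKM with the strNrip1-/- label, and among trained ones to 41336.5 ± 3575 and 33694 ± 1591 FPKM (SD, n = 3 each). Aldoa alone held between 43.7% and 47.1% of each sum. Among the genes outside the mitochondrial genome, the 11 took 6.76% ± 0.129, 5.84% ± 0.102, 6.81% ± 0.0603 and 5.71% ± 0.251 of the FPKM in the same order. On this scale the 6 libraries labelled WT spanned 6.65% to 6.91% and the 6 labelled strNrip1-/- spanned 5.53% to 5.99%, and the 2 libraries with the highest sums no longer stood apart, at 5.95% and 6.87%. These shares follow from the values of the members above and were not tested again. In whole muscle, fewer fibers of a type and less RNA per fiber cannot be told apart.

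**Figure D3:**
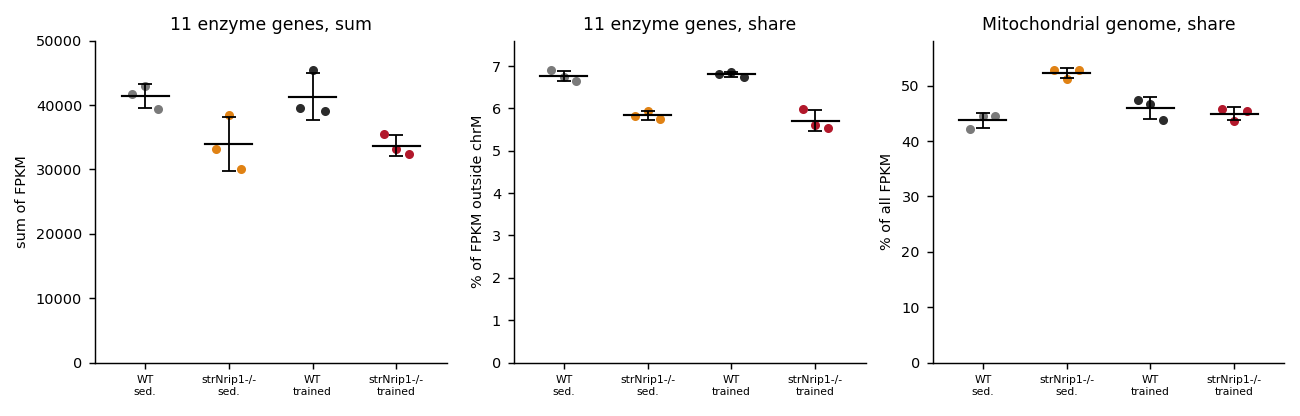
The summed FPKM of the 11 enzyme genes (left), their share of the FPKM outside the mitochondrial genome in percent (middle) and the share of the mitochondrial genome in all FPKM in percent (right), per library, with the mean of 3 libraries (bar) and the SD (whiskers). The shares in the middle lie between 6.65% and 6.91% in libraries labelled WT and between 5.53% and 5.99% in those labelled strNrip1-/-, and the mitochondrial share stands at 51.2% to 52.8% in sedentary libraries labelled strNrip1-/-.

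The next question was what training did to these genes. None of the 11 members was called in labelled WT or in labelled strNrip1-/- muscle by limma, where 0 of the 12744 genes passed in either (0% of all genes), and at an unadjusted p under 0.05 there were 0 and 1 members, beside 1061 and 1544 of all genes. The members' median log2 fold change was 0.03 in labelled WT and −0.01 in labelled strNrip1-/- libraries. The 1 member was Gpi1, with a log2 fold change of 0.19 (limma, adjusted p = 0.404, SE 0.085) in the libraries labelled strNrip1-/-, where its trained values of 499.6 to 509.8 FPKM all lay above the sedentary values of 394 to 486 FPKM, a separation that 9.40% of all genes showed. The corresponding value in labelled WT libraries was −0.02. Pgk1 had the largest value in labelled WT muscle, 0.18 (adjusted p = 0.700, SE 0.104), and the second Aldoa gene the lowest, −0.11 (adjusted p = 0.913, SE 0.171), which turned to 0.13 without labelled WT trained replicate 2. With every library set to the same sum of FPKM, Gpi1 and Gapdh were called higher after training in labelled strNrip1-/- muscle (2 members), a scale on which 143 of all genes were called higher and 7 lower and the median of all genes also moved by 0.16 in that comparison.

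The difference of the genotype effects between trained and sedentary muscle was tested as an interaction. By limma no member passed, nor did any of the 12744 genes (0% called), and at an unadjusted p under 0.05 there were 0 members and 989 genes. The interaction ran from −0.18 for Gpd1 (adjusted p = 0.700, SE 0.106) to 0.21 for Gpi1 (adjusted p = 0.688, SE 0.120), with a median of 0.04 over the members and 0.01 over all genes. Thus the calls of Tpi1 and Eno3 in trained and not in sedentary muscle were not shown to differ between the states, with interactions of −0.10 (adjusted p = 0.906, SE 0.146) and −0.13 (adjusted p = 0.876, SE 0.162).

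The same steps can be run by other isozymes, which are typical of other tissues or of slow fibers. Of the 12 listed, 8 passed the filter, and over both training states 2 were called higher and 0 lower in the libraries labelled strNrip1-/-, with a median log2 fold change of 0.07. Of all 12744 genes tested, 624 were called higher and 498 lower over both states, the background for this list and those below. The called isozymes were Eno1, the widely expressed alpha enolase, and Pfkl, the liver type of phosphofructokinase. Eno1 was at 96.3, 91.4 and 94.4 FPKM in labelled WT sedentary and 139, 150.1 and 142 FPKM in sedentary libraries labelled strNrip1-/-, and at 83.6, 122 and 89.1 FPKM against 147, 136 and 143 FPKM in the trained groups, with no overlap. In log2 units Eno1 rose by 0.61 (limma, adjusted p = 0.0166, SE 0.116) in sedentary and by 0.55 (adjusted p = 0.0196, SE 0.116) in trained muscle. Of the summed Eno1 and Eno3 FPKM, Eno1 held between 1.74% and 1.95% in sedentary libraries labelled WT and between 3.16% and 3.72% in those labelled strNrip1-/-. In the trained groups it held between 1.71% and 2.10% and between 3.37% and 3.85%. This share is taken within a library and does not depend on its scale.

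Pfkl was far lower, at 3.21, 3.13 and 2.65 FPKM in labelled WT sedentary and 3.05, 4.08 and 4.04 FPKM in sedentary libraries labelled strNrip1-/-, and at 2.78, 2.18 and 3.07 against 3.69, 4.77 and 4.52 FPKM in the trained groups. Only the trained groups did not overlap. Its log2 fold change was 0.61 (limma, adjusted p = 0.0351, SE 0.148) in trained muscle and 0.44 (adjusted p = 0.0208, SE 0.105) over both states, and the latter call was lost without labelled WT sedentary replicate 3 or labelled strNrip1-/- trained replicate 2 or 3, without the pair of libraries with the highest sums and with the same sum of FPKM (adjusted p-values up to 0.0869). Pfkl made up 0.120% to 0.164% of the summed phosphofructokinase FPKM in libraries labelled WT and 0.177% to 0.272% in those labelled strNrip1-/-, so Pfkm remained nearly all of it.

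**Figure D4:**
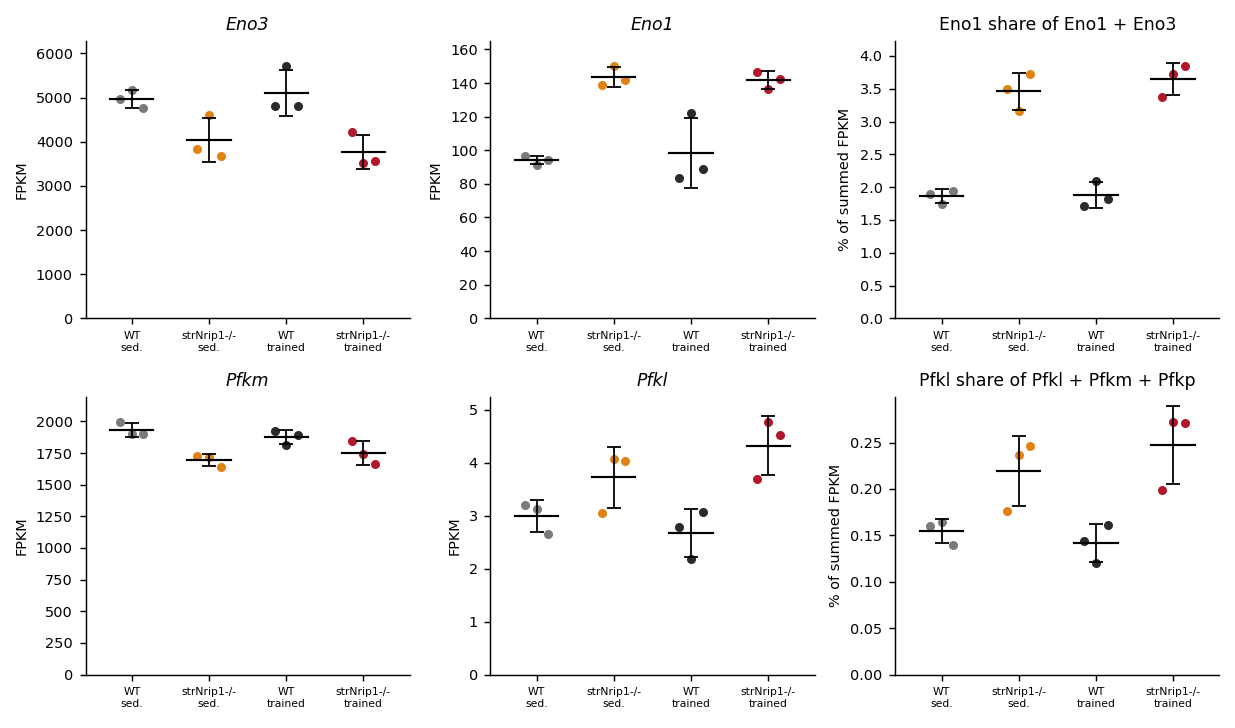
FPKM (y axis, from 0) of Eno3, Eno1, Pfkm and Pfkl per library, and the share in percent of Eno1 in the enolase FPKM and of Pfkl in the phosphofructokinase FPKM (right column), with the mean of 3 libraries (bar) and the SD (whiskers). Eno1 held 1.71% to 2.10% of the enolase FPKM in libraries labelled WT and 3.16% to 3.85% in those labelled strNrip1-/-.

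Because Eno3, Aldoa and Eno1 were called in different directions, the 100 bases before a start site of each were set side by side, from RefSeq on GRCm38.p6 and 5′ to 3′ on the gene's strand. For each gene the first listed start whose window held no annotated exon was taken, which left none for Tpi1 and Pkm. Aldoa and Eno1 had 3 listed starts each and Eno3 had 1, and which start this muscle uses was not examined. Capitals mark E-boxes (CANNTG, bound by helix-loop-helix factors such as MyoD) and GC boxes (GGGCGG, bound by Sp factors). The windows lie at chr11:70657076-70657175 on the plus strand for Eno3, chr7:126799255-126799354 on the minus strand for Aldoa and chr4:150236608-150236707 on the plus strand for Eno1.
Eno3: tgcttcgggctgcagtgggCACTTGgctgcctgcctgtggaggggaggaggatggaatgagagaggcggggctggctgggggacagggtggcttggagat
Aldoa: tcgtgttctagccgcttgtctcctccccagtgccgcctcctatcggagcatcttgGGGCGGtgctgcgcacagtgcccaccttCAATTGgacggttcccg
Eno1: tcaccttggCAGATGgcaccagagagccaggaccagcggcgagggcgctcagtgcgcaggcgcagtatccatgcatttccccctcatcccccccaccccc
Each window held 1 E-box, and only that of Aldoa held a GC box. The windows were alike in base composition, with 66%, 63% and 67% G and C.

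Over the whole 300-base promoters (250 bases before and 50 after a start), 9 of the 10 symbols had entries, 15 promoters in all, and Gpd1 had none. On both strands an E-box was found in 12 of the 15, against 72.3% of 32851 mouse promoters of the same length, and a GC box in 6 of the 15, against 35.7%. The core ACGTG that hypoxia-inducible factors bind was found in 7, in promoters of Aldoa, Pfkm, Gapdh, Pgk1 and Pkm, against 19.6% of all promoters. Several of these promoters overlap each other, as those of Aldoa do, so they are not separate observations. The half-site AAGGTCA of estrogen-related receptors was found in 1, that of Tpi1, beginning 9 bases from the start, against 4.72% of all promoters. A TATAAA box on the gene's strand and the MEF2 motif were found in none of the 15, against 8.32% and 0.557%.

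Genes around the pathway were then counted from lists for its entry, its regulation and the fate of pyruvate. Of 18 such genes 15 were tested, and over both training states 4 were called higher and 5 lower in the libraries labelled strNrip1-/-, with a median of −0.10. Hk1, a hexokinase of wide expression, rose by 0.83 in log2 units (limma, adjusted p = 1.3e-04, SE 0.086), from 2.58 to 3.22 FPKM in libraries labelled WT to 4.65 to 7.02 FPKM in those labelled strNrip1-/-. Ldhb, the heart form of lactate dehydrogenase, rose by 1.08 (adjusted p = 3.1e-04, SE 0.125), from 98.0 to 167 FPKM to 199 to 321 FPKM. In the other direction, Slc16a3, which encodes the lactate exporter MCT4, fell by 0.58 (adjusted p = 0.00316, SE 0.098), and Pgm1, which links glycogen to glucose 6-phosphate, fell by 0.28 (adjusted p = 7.7e-04, SE 0.038). The call of Pgm1 was lost when nuclear genes were set to the same sum, where its log2 fold change of −0.22 no longer passed the fold threshold, while the other 3 held in all alternatives over both states. The further calls were Pfkfb1 and Pfkfb2 (higher) and Pfkfb4, Fbp2 and Ldha (lower), of which Pfkfb4 was lost in 12, Pfkfb1 in 9 and Pfkfb2 in 1 of 23 alternatives.

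The NADH shuttles, which hand electrons from the Gapdh step to mitochondria, moved unevenly. Of the 8 genes, all tested, 5 were called higher and 1 lower over both states, with a median of 0.32, where 624 of all 12744 genes were called higher and 498 lower. The 5 were genes of the malate-aspartate shuttle, of which Mdh2 and Slc25a13 were not called. Got1, its cytosolic aminotransferase, rose by 0.69 (limma, adjusted p = 2.7e-05, SE 0.055), Got2, the mitochondrial form, by 0.51 (adjusted p = 0.00124, SE 0.074), and the carrier gene Slc25a12 by 0.29 (adjusted p = 0.0115, SE 0.061), the last losing its call without labelled strNrip1-/- sedentary replicate 2, with the same sum of FPKM and under quantile normalization, where it was 0.24 to 0.26. The further calls, Mdh1, the cytosolic malate dehydrogenase, and Slc25a11, the carrier of malate and oxoglutarate, were lost in 6 and 11 of 23 alternatives. Gpd2, the mitochondrial partner of Gpd1, was called lower. It was at 45.0, 43.1 and 41.5 FPKM in labelled WT sedentary and 35.1, 32.8 and 30.0 FPKM in sedentary libraries labelled strNrip1-/-, and at 40.2, 42.4 and 43.1 against 32.9, 28.9 and 34.5 FPKM in the trained groups, with no overlap. Its log2 fold change was −0.40 (adjusted p = 0.0217, SE 0.082) in sedentary, −0.38 (adjusted p = 0.0202, SE 0.082) in trained muscle and −0.39 (adjusted p = 0.00142, SE 0.058) over both, beside a value of −0.04 for Gpd1 (adjusted p = 0.755, SE 0.053).

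Among 18 transcription factors and coactivators known to act on glycolytic or oxidative genes, all tested, 4 were called higher and 0 lower over both states, with a median of 0.00. Esrra, which encodes the estrogen-related receptor ERRα, rose by 0.62 (limma, adjusted p = 2.5e-05, SE 0.049). Esrrb, a low gene at 1.24 to 2.66 FPKM, rose by 0.62 (adjusted p = 9.3e-04, SE 0.085). The related Esrrg and Ppargc1a were not called. With the strNrip1-/- label their means were higher in sedentary and lower in trained muscle. Ppargc1b, the coactivator PGC-1β, rose by 0.87 (adjusted p = 0.0175, SE 0.200), a call lost without the pair of libraries with the highest sums (0.68, adjusted p-value 0.0662). Epas1, which encodes HIF-2α, rose by 0.35 (adjusted p = 0.0158, SE 0.078), a call lost with the same sum of FPKM (adjusted p-value 0.0696). Hif1a, which encodes HIF-1α, known as an activator of glycolytic genes, was not among the calls.

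Markers of the fast fiber moved with the enzymes. All 11 of the fast-fiber genes were below 0 over both states and 7 were called lower, with a median of −0.38. Of the 8 slow-fiber genes 5 were also below 0 and 0 were called, with a median of −0.19. The slow-fiber genes varied widely within groups, their sum running from 66.3 to 576 FPKM in the trained WT group alone. Their lack of calls therefore does not set them apart from the fast-fiber genes. Actn3, the actinin of fast glycolytic fibers, fell by 0.83 (limma, adjusted p = 1.4e-05, SE 0.059), Casq1 by 0.61 (adjusted p = 5.4e-04, SE 0.076), Mybpc2 by 0.53 (adjusted p = 1.5e-04, SE 0.056) and Myl1 by 0.58 (adjusted p = 0.00458, SE 0.104). These 4 calls held in every alternative over both states, whereas those of Pvalb, Myh4 and Mylpf were lost in 13, 10 and 5 of the 23. Among sedentary libraries the fast-fiber genes summed to 134743 to 150604 FPKM with the WT label and 100492 to 135830 FPKM with the strNrip1-/- label, among trained ones to 131648 to 160268 and 110465 to 117489 FPKM, and their part in the level of the enzymes was not tested. Of the 2 intermediate-fiber markers, Myh1 and Myh2, only Myh2 was called over both states. Myh2, the myosin of oxidative fast fibers, was higher, with a value of 0.36 (limma, adjusted p = 0.0299, SE 0.094) and a call lost in 10 of 23 alternatives. By state, Myh2 was called in trained muscle and not in sedentary muscle. Its sedentary means were 206.8 FPKM with the WT label and 207.2 FPKM with the strNrip1-/- label, and its trained means 214 and 352 FPKM. Of the tested markers of adipocytes, macrophages, fibroblasts, Schwann cells, blood, tendon and liver none was called in any comparison, and of 7 endothelial markers 1 was, Cdh5, at 0.28 (adjusted p = 0.0308, SE 0.072), a call lost in 12 of 23 alternatives. All 9 liver transcripts were below 0 after training under both labels, with medians of −1.22 and −1.37, and summed to 476 to 827 FPKM in sedentary and 129.6 to 519.7 FPKM in trained libraries. Their part in the level of the enzymes was not tested.

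To find which other genes ran most like the enzymes, each gene of at least 10 FPKM on average was centered on the log2 scale and compared over the 12 libraries with the mean profile of the 11 members. This mean profile ran from 0.06 to 0.25 in the libraries labelled WT and from −0.25 to −0.01 in those labelled strNrip1-/-. Of 4765 genes outside the group, the nearest by root mean square difference were Fkbp9 (0.045), Psmd6 (0.054), Ldb3 (0.057), Dnajb11 (0.059) and Apobec2 (0.062), against a median of 0.207 over all. Ldb3 encodes a Z-disc protein of striated muscle and Fkbp9 and Dnajb11 proteins of the endoplasmic reticulum. Within the group the nearest members were Aldoa (0.044), Pkm (0.048) and Tpi1 (0.059), and the farthest were the second Aldoa gene (0.404), Gpi1 (0.164) and Gpd1 (0.148). Each member, the second Aldoa gene with its larger change included, is part of the mean profile. The genes outside the group are not, so their distances cannot be ranked against those of the members.

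The genes differed in how much of their sequence is their own. No run of 31 bases of the annotated transcripts examined was shared with another gene for Pfkm, Pgam2, Eno3 and the second Aldoa gene. The share was 18.5% for Tpi1, 34.2% for Aldoa, 37.3% for Gpi1, 50.9% for Pkm, 68.3% for Pgk1 and 84.1% for Gapdh, with copies or repeats elsewhere in the transcriptome. Among the genes that shared the largest parts with each member, the most signal was that of Gm7336. It resembles Gapdh and stood at 19.4 FPKM against 6227 FPKM for Gapdh. Levels of the other sharing genes were not compared. For Gpd1 11.6% was shared with Gm16537, which overlaps it, and since the libraries kept no strand, reads of overlapping antisense genes could not be told apart.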

How the data were processed

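RNA-seq was run on EDL muscle in 4 groups of 3 libraries, assigned from the sample labels. DNase-treated total RNA went into a library kit without strand information. Per the study's methods and the submitters' processing notes, the authors used Salmon 1.10.2 (transcript quantification, mm10), tximport (gene summaries) and DESeq2 1.44.0 (testing). The authors deposited 1 table with FPKM per gene and library, the log2 fold change of 4 comparisons and the adjusted p-value of each. The function that gave the FPKM, the annotation release and the rule for keeping genes were not given in the sources used here. The authors' log2 fold changes and p-values were not used. No column lacked a known sample.

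Values were taken as log2(FPKM + 0.5), which understates changes of low genes. All 12744 genes averaging 0.5 FPKM or more were fitted together with limma 3.58.1 (R 4.3.3), with 4 group means and a mean-dependent prior. Two-sided p-values were adjusted by Benjamini-Hochberg over the 12744 genes of each contrast. The interaction was called on the adjusted p alone. The procedure was tested on simulated data. No count model was fitted, since FPKM is not a count. The scaling total of each library was read from the spacing of low FPKM in 1613 genes with 1 transcript longer than 1500 nt, where 99.0% to 99.7% of values fell within 0.15 of a whole number of fragments. Deposited values of replicates were never identical.

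The enzymes and all gene lists were chosen with earlier results of these data known. All 10 symbols were described. From each list the count over the whole list is given, and values for at most the 4 called genes with the smallest adjusted p. The 5 nearest patterns were sought among genes of at least 10 FPKM. The list of liver transcripts and the fit without the pair of libraries with the highest sums were added after the data were seen. All 11 rows matched GENCODE M21 on GRCm38, where coordinates are 1-based. Runs of 31 bases were compared with every annotated transcript of that release. Alternatives were the pseudocount, the filter, 4 rescalings, the samples fitted, the prior, a replicate block and leaving out each library. Single genes of 2 lists are not reported here.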

Additional observations from a re-analysis of the deposited data

How the results depend on the processing

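Of the counts of members called between the labelled genotypes, the sedentary count of 2 became 7 with the same sum of FPKM, 5 under quantile normalization, 1 with only the groups compared and 6 without the pair of libraries with the highest sums, a fit chosen after seeing the data. The trained count of 4 became 1 with no filter, 2 with no mean-dependent prior and 0 with only the groups compared, where the calls over all genes went from 762 to 658, 623 and 445. In the sedentary fits named they went from 447 to 652, 526, 166 and 446. The count of 5 over both states stayed between 4 and 6. Leaving out each library gave 0 to 2 (0 without labelled WT sedentary replicate 1), 1 to 4 (1 without labelled WT trained replicate 1, 2 or 3 or labelled strNrip1-/- trained replicate 2 or 3) and 4 to 6 calls. The calls over all genes fell in these refits too. The sedentary refit with 0 members called 163 of all genes, against 447. The trained refits with 1 member called 315 to 691, against 762. The members' median moved to −0.46 in sedentary muscle with the same sum and to −0.15 in trained muscle without the pair of libraries, where leaving out each library gave −0.33 to −0.15, the latter without labelled WT trained replicate 2. With the same sum the training count in labelled strNrip1-/- muscle became 2 with a median of 0.16 and the median interaction 0.26, and the latter was −0.15 under quantile normalization. The shifts with the same sum go with the shift of all genes by construction, and for the others the cause was not tested.

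Among the results refitted, signs turned only for values that were not called. Gpi1 became −0.014 in trained muscle under quantile normalization and, over both states, −0.043 with the same sum, −0.078 under quantile normalization and −0.0303 to 0.0448 when leaving out each library. Pgk1 in sedentary muscle became 5.8e-04 with the same nuclear sum, and Pgam2 ranged from −0.28 to 8.4e-04. Gpd1 became −0.10 in sedentary muscle with the same sum, 0.023 and 0.0079 over both states with the same nuclear sum with and without the members, and 0.037 in the interaction with the same sum. The second Aldoa gene after training in labelled WT muscle ranged from −0.24 to 0.13 and was also 0.13 without the pair of libraries. Of 456 refits of single members that left out 1 library, 413 kept the direction and the call, 34 lost a call, 1 gained one and 8 turned. For the genes of the lists that were called, 146 of 768 such refits and 69 of 727 other refits lost the call and none turned.

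A fit with the replicate number as a block called 2, 4 and 6 members, against 2, 4 and 5, and 441, 756 and 1132 genes, against 447, 762 and 1122. Same-numbered libraries correlated between −0.10 and 0.24, other pairs between −0.25 and 0.20, and 4 of the 12 libraries correlated best with one of their own number, so the libraries were taken to share only a number and no call is read from the block. With 3 libraries per group, the genotype differences measured for Gpi1, Pgk1, Pgam2 and Gpd1 were within 2 standard errors.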
